A study of Mus musculus with 8 samples.

Results

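Protein kinase A (PKA) and the enzymes that break down cyclic AMP (cAMP) were described at the level of their transcripts in mouse brown fat. The set held 10 genes, found by their gene symbols, of the 41388 genes in the tables. These were the catalytic subunits Prkaca and Prkacb, the regulatory subunits Prkar1a, Prkar2a and Prkar2b, and the phosphodiesterases Pde3a, Pde3b, Pde4a, Pde4b and Pde4d. All 10 had enough reads to be tested, with 152 to 69609 counts per gene and library.

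RNA was sequenced from 8 samples of mouse brown fat. The strain label is C57BL/6J, and the mice were housed at room temperature and fed regular chow. In the 4 samples called ANKO, floxed alleles of Nampt were combined with a Cre recombinase driven by adiponectin, a gene of brown and white adipocytes, so the other cells of the tissue keep Nampt. The 4 samples called WT came from Nampt flox/flox mice and are labelled wild type. The labels used here give no age, sex or litter, nor whether each sample is 1 mouse or a pool, so p-values measure the spread between these samples, which may be technical. Nampt encodes the enzyme that recycles nicotinamide towards NAD+, and the comparison asks which transcripts differ when adipocytes lack it.

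PKA is a holoenzyme in which a dimer of regulatory subunits holds catalytic subunits inactive until cAMP binds the regulatory subunits. In brown adipocytes noradrenaline raises cAMP through β-adrenergic receptors, and PKA then phosphorylates lipolysis proteins and transcription factors that drive heat production. Phosphodiesterases end the signal by hydrolysing cAMP. PDE3 enzymes are inhibited by cGMP, PDE3B carries the antilipolytic action of insulin in adipocytes, and PDE4 enzymes are specific for cAMP.

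Libraries held 5738067 to 26426476 counts in ANKO and 21771276 to 49697156 in WT, and a level of 3 counts, excluding rRNA, was 0.115 to 0.527 CPM (counts scaled to a common library total) in ANKO and 0.0626 to 0.142 CPM in WT. Such floors cover counting error only. They were computed from library totals alone, while the CPM of genes given here also carry TMM scaling factors. Nampt itself averaged 72.3 ± 4.67 CPM in ANKO and 508 ± 42.2 CPM in WT (SD, n = 4 each). The tissue label was matched by Ucp1, the uncoupling protein of brown fat, with 317 to 1673 CPM in ANKO, against 3369 to 8829 CPM in WT. Markers of other cells moved with genotype. Of 12 skeletal muscle markers 9 rose and 3 were not called, with a sum of 9339 to 14049 CPM in ANKO and 30.8 to 2667 CPM in WT. All 12 were higher in each ANKO library than in each WT library. Of all genes tested 55.0% did not overlap between the groups in either direction. WT3 and WT4 held the least muscle RNA. All 12 macrophage markers rose, with a sum of 1289 to 1782 CPM in ANKO and 160.3 to 212 CPM in WT. Of 12 lymphocyte markers 11 rose (37.4 to 62.0 CPM in ANKO, 6.33 to 8.32 CPM in WT), as did 9 of 10 fibroblast and progenitor markers (4216 to 7799 CPM in ANKO, 959.7 to 1351 CPM in WT). Of 12 adipocyte markers 11 fell and 0 rose, with sums of 12022 to 16076 CPM in ANKO and 23597 to 28284 CPM in WT. Of 10 endothelial markers 5 fell and 0 rose, of 10 smooth muscle and pericyte markers 7 rose and 2 fell, and of 9 tested Schwann cell and nerve markers 5 rose and 1 fell. None of the listed markers was at 0 in all libraries.

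Most PKA subunit and phosphodiesterase transcripts were lower in ANKO brown fat. Of the 10 genes 8 fell, 1 rose (Pde4b) and 1 did not pass the test (Prkar2a). Calls rest on edgeR's quasi-likelihood test with an adjusted p under 0.05 over all 16705 genes tested. In that comparison 58.2% of all genes were called, 27.6% lower and 30.6% higher, so calls as such were common. Without scaling factors 66.7% of all calls were higher, against 52.5% with them. The median log2 fold change was -1.07 over the 10 genes and -0.01 over all genes tested. It was -0.89 over the 12 adipocyte markers and -1.80 over a list of 10 brown adipocyte markers. Of the 8 lower genes 5 fell by at least 1 on the log2 scale. In 9 of the 10 genes no ANKO library overlapped any WT library, against 55.0% of all genes tested. In tissue RNA, fewer cells of a type and less RNA per cell cannot be told apart. The plot of CPM by library shows each of the 10 genes, and the plot of log2 fold changes their differences with intervals.

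**Figure D1:**
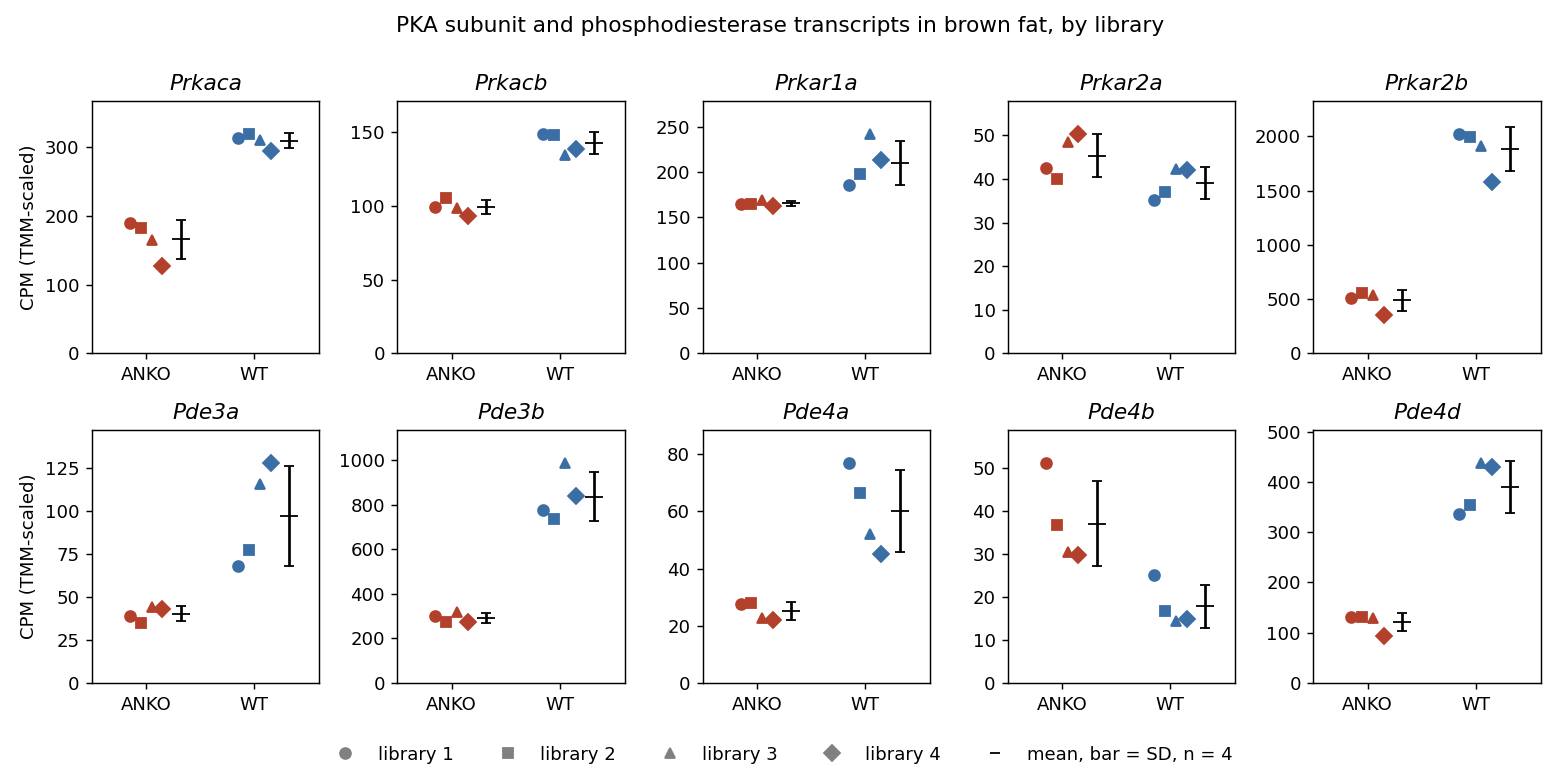
Levels of the 10 transcripts in CPM scaled by TMM (vertical axes, each from 0) in the 4 ANKO libraries (left, red) and the 4 WT libraries (right, blue), with the mean and SD of each group in black. ANKO lies below WT without overlap in 8 panels, above WT in the Pde4b panel, and overlaps WT in the Prkar2a panel.

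Promoter windows of the members were searched for the cAMP response element (CRE), the site of CREB, the transcription factor that PKA phosphorylates. The RefSeq table (GRCm38.p6) held 22 windows for 8 of the 10 members, each 300 bases from 250 before to 50 after an annotated start. The whole element TGACGTCA, a palindrome, was in 2 of the 22 windows. Both are overlapping starts of Prkar1a that hold the same element. It was in 1.79% of all 32851 windows of the table. Its parts TGACG or CGTCA, which cover both strands and include the whole element, were in 8 of the 22 (36.4%) and in 20.8% of all. Prkar1a supplies 3 of these 8 windows. Of these 3, 2 overlap and hold the same matches, and the other holds a CGTCA 151 bases before its start. Windows of one gene are thus not independent, and enrichment was not tested. The 4 windows below show the spread among members that moved differently: the member with the largest fall, the one with the whole element, the main catalytic subunit and the member that rose. Capitals mark every match.
Prkar2b, chr12:32061228-32061527, minus strand: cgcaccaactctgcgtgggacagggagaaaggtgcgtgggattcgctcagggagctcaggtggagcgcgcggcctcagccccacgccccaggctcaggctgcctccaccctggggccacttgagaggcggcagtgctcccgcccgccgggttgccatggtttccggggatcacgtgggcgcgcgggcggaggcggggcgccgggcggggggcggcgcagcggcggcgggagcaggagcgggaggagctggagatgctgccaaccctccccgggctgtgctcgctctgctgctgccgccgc
Prkar1a, chr11:109650699-109650998, plus strand: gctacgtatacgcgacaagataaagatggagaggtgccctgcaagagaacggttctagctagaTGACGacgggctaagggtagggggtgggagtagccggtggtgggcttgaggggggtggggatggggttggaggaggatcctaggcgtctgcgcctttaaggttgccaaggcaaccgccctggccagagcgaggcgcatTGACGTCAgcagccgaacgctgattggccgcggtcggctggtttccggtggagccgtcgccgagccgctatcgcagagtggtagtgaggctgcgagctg
Prkaca, chr8:83972728-83973027, plus strand: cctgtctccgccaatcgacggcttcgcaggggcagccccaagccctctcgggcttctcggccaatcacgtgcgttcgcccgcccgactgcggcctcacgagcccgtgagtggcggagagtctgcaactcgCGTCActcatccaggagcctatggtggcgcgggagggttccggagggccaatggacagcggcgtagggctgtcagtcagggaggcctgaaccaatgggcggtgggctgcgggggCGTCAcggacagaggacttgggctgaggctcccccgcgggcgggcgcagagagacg
Pde4b, chr4:102421305-102421604, plus strand: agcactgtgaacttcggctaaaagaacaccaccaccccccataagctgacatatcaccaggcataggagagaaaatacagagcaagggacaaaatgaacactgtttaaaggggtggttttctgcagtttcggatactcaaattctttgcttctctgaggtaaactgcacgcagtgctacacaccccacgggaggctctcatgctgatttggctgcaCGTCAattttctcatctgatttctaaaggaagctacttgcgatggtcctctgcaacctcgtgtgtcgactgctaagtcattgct

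In Prkar1a the whole element starts 49 bases before the annotated start and a further TGACG 187 bases before it. In Prkaca a CGTCA lies 120 and another 6 bases before the start, and in this Pde4b window 1 lies 34 bases before it. Neither Prkar2b window nor the Pde4d window holds these letters. The other Prkaca window and the other 3 Pde4b windows hold none either. Of the members that are not printed, Prkar2a, which was not called, has a match in its 1 window, and Pde4a and Prkacb, which fell, have one in 1 of 3 windows each.

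Of the 3 regulatory subunits Prkar2b and Prkar1a fell and Prkar2a was not called. Prkar2b (ENSMUSG00000002997, chromosome 12, 31958476 to 32061296, minus strand, GRCm38) encodes RIIβ, the regulatory subunit that prevails in brown and white fat, and mice without it are lean. Its level was 506, 554, 539.8 and 351 CPM in ANKO libraries 1 to 4, against 2027, 1999, 1914 and 1584 CPM in WT libraries 1 to 4. Library 4 was the lowest of both groups, and the highest ANKO library lay far below the lowest WT library. Prkar2b fell 3.86-fold, which is a log2 fold change of -1.95 ± 0.18 (standard error; 95% interval -2.35 to -1.54; edgeR adjusted p = 1.35e-05). It showed the largest fall of the 10 genes. Prkar2b lies on the same chromosome as the floxed gene, with 759039 bases between its end and the start of Nampt. Both groups carry the floxed alleles, and whether this position bears on the level of Prkar2b was not tested.

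Prkar1a (ENSMUSG00000020612, chromosome 11, 109649405 to 109669656, plus strand) encodes RIα, found in nearly all tissues, and 2 overlapping windows of its 6 annotated starts hold the whole CRE. Its level was 165, 165, 169 and 163 CPM in ANKO, against 186, 198, 243 and 213 CPM in WT. The ANKO libraries lay close together and just under the lowest WT library. Prkar1a fell 1.27-fold (log2 fold change -0.34 ± 0.10, edgeR adjusted p = 0.0167). This call was lost without scaling factors (-0.15), after thinning the counts to the lowest library total (-0.28), without WT3 and WT4 (-0.23) and after adjustment for the mean level of 12 muscle markers (-0.13).

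Prkar2a (ENSMUSG00000032601, chromosome 9, 108692143 to 108749512, plus strand) encodes RIIα, a widely expressed relative of RIIβ. It stood at 42.5, 39.9, 48.5 and 50.4 CPM in ANKO, against 35.1, 37.1, 42.3 and 42.1 CPM in WT, so the groups overlapped. Its log2 fold change was 0.21 with a 95% interval of -0.03 to 0.45 (edgeR adjusted p = 0.114). With upper-quartile scaling or without scaling factors it was called higher, at 0.30 and 0.41.

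Both catalytic subunits were lower. Prkaca (ENSMUSG00000005469, chromosome 8, 83972978 to 83996445, plus strand) encodes Cα, the main catalytic subunit of most tissues. Prkaca was at 189.9, 182, 165 and 127 CPM in ANKO, against 313, 320.3, 310.5 and 295 CPM in WT. The WT libraries were nearly alike, and ANKO4 was the lowest of all. The fall was 1.86-fold (log2 fold change -0.90 ± 0.13, edgeR adjusted p = 0.00027).

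Prkacb (ENSMUSG00000005034, chromosome 3, 146729579 to 146812960, minus strand) encodes the close relative Cβ. Prkacb was at 99.2, 105, 98.6 and 93.2 CPM in ANKO, against 149, 148, 135 and 139 CPM in WT. The spread within each group was small and the groups were apart. It fell 1.44-fold (log2 fold change -0.52 ± 0.08, edgeR adjusted p = 0.000424). How reads that fit both genes were assigned is not given in the sources used here, so the split between these relatives is uncertain.

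**Figure D2:**
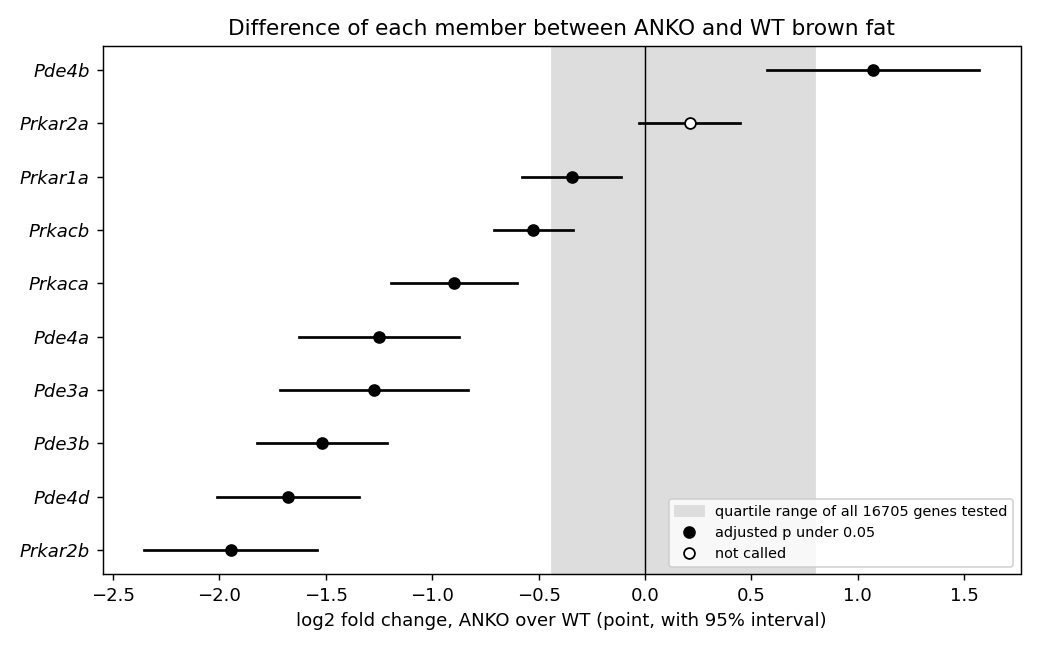
Log2 fold change of ANKO over WT (horizontal axis) for each of the 10 genes (vertical axis), with the 95% interval as a line and the range between the quartiles of all genes tested as a grey band. Prkar2b lies farthest to the left at -1.95, Pde4b is called to the right at 1.07, and the open point of Prkar2a marks the gene that was not called.

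The make-up of PKA transcripts shifted as well, which was read from levels per gene length (RPKM). In ANKO the order of mean RPKM was Prkar2b (134 ± 25.5), Prkaca (72.4 ± 12.2), Prkar1a (38.3 ± 0.627), Prkacb (18.2 ± 0.916) and Prkar2a (11.2 ± 1.22). In WT the order was the same, at 515 ± 55.8, 135 ± 4.72, 48.6 ± 5.67, 26.2 ± 1.31 and 9.69 ± 0.900 RPKM (SD, n = 4 each). No neighbours in these orders overlapped between libraries. Prkar2b made up 74.0%, 76.0%, 74.3% and 65.7% of the summed RPKM of the 3 regulatory subunits in ANKO, against 91.5%, 90.9%, 88.7% and 87.9% in WT. Its share was thus lower in each ANKO library, and remained the largest of the class in all 8. The mean difference was -17.3 percentage points. Prkar1a gained 12.7 points, with 21.2% ± 3.06 in ANKO and 8.55% ± 1.42 in WT. Prkar2a gained 4.57 points, with 6.28% ± 1.56 in ANKO and 1.71% ± 0.304 in WT.

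The summed RPKM of the regulatory subunits in ANKO was 31.9% of the WT level, and that of the catalytic subunits 56.2%. The regulatory sum is mostly Prkar2b: the median log2 fold change was -0.34 over the 3 regulatory genes and -0.71 over the 2 catalytic genes. The ratio of catalytic to regulatory RPKM was 0.539, 0.495, 0.452 and 0.496 in ANKO, against 0.270, 0.277, 0.271 and 0.312 in WT. Every ANKO library lay above every WT library. Within the catalytic pair, Prkaca held 79.7% ± 2.34 in ANKO and 83.8% ± 0.562 in WT. Each of these 5 quantities gave p = 0.0286 in an exact two-sided permutation test, the smallest that 4 against 4 libraries allow, and an adjusted p of 0.0476 over the 10 quantities tested for PKA and the phosphodiesterases. None of them passed after thinning the counts to the lowest library total, where their adjusted p from the exact permutation test was 0.0571 or more. Shares of one class add up to the whole and are not independent of each other.

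**Figure D3:**
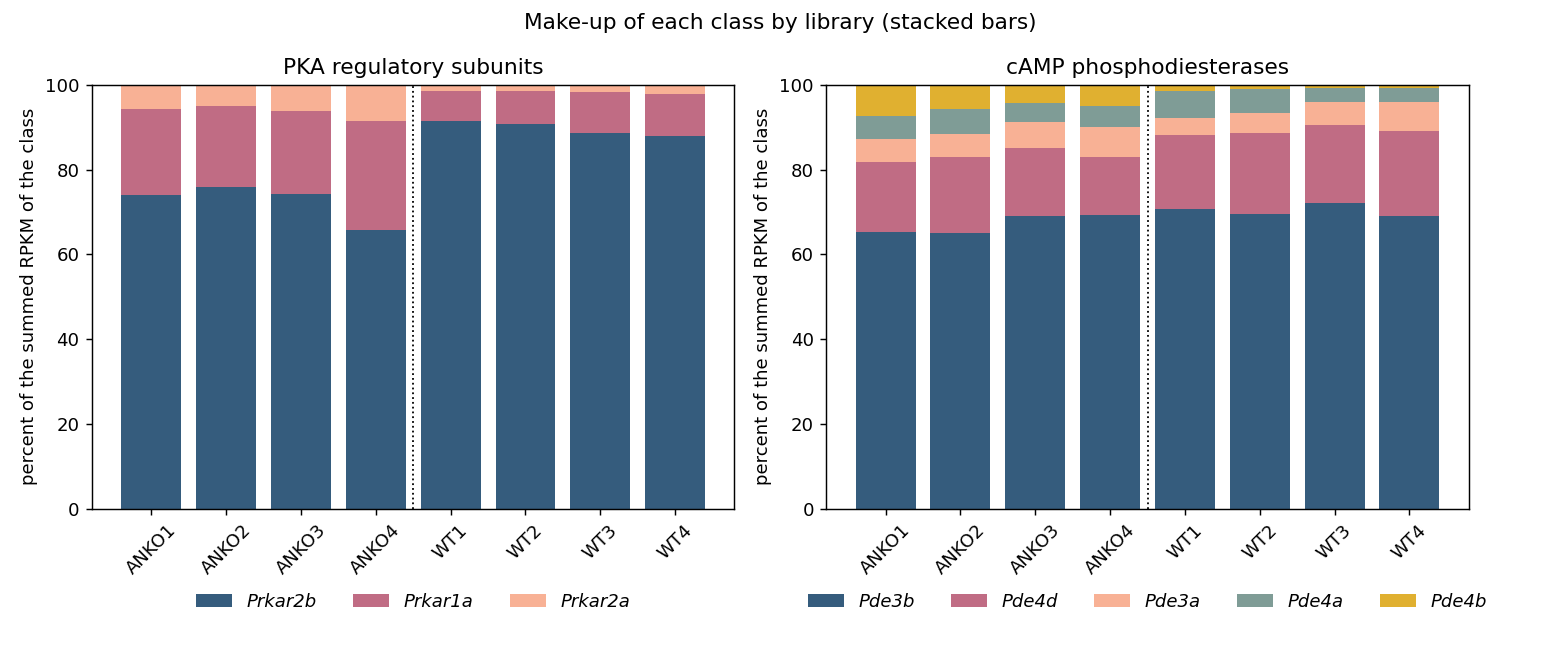
Stacked bars of each gene's percent of the summed RPKM of its class (vertical axes, 0 to 100) in each library (horizontal axes, ANKO left of the dotted line and WT right), for the 3 regulatory subunits (left) and the 5 phosphodiesterases (right). The Prkar2b part is smaller in all ANKO libraries (65.7% to 76.0%) than in WT (87.9% to 91.5%), and the Pde4b part is larger.

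Of the 5 phosphodiesterases 4 fell and Pde4b rose. Pde3b (ENSMUSG00000030671, chromosome 7, 114415281 to 114539251, plus strand) was the most abundant of them per length in both groups. It was at 299, 275, 321 and 273 CPM in ANKO, against 777, 738, 988 and 842 CPM in WT. The groups were far apart, and WT3 was the highest library. Pde3b fell 2.86-fold (log2 fold change -1.52 ± 0.14, edgeR adjusted p = 1.05e-05).

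Pde3a (ENSMUSG00000041741, chromosome 6, 141249269 to 141505940, plus strand), the form known from heart, vessels and platelets, was at 38.9, 34.9, 44.3 and 43.0 CPM in ANKO, against 67.6, 77.5, 116 and 128 CPM in WT. WT3 and WT4 were clearly above WT1 and WT2, while the ANKO libraries were close together. Pde3a fell 2.42-fold (log2 fold change -1.27 ± 0.20, edgeR adjusted p = 0.000395). After adjustment for muscle markers the log2 fold change was -0.50 ± 0.21 and not called (edgeR adjusted p = 0.116), and without WT3 and WT4 it was -0.86. An annotated antisense gene, Gm28523, shares 6.86% of the exonic bases of Pde3a. It held 256 counts over all libraries, against 14848 for Pde3a.

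Among the PDE4 genes, Pde4d (ENSMUSG00000021699, chromosome 13, 108449948 to 109953461, plus strand), whose long isoforms are activated by PKA, was at 131, 132, 129.6 and 93.8 CPM in ANKO, against 336, 354, 437 and 429 CPM in WT. ANKO4 lay below the other ANKO libraries, which were nearly equal. Pde4d fell 3.20-fold (log2 fold change -1.68 ± 0.15, edgeR adjusted p = 9.77e-06), second in size to Prkar2b.

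Pde4a (ENSMUSG00000032177, chromosome 9, 21165714 to 21213248, plus strand) was at 27.7, 28.1, 22.8 and 22.1 CPM in ANKO, against 76.9, 66.5, 52.1 and 45.04 CPM in WT. In WT it ran opposite to Pde3a, with the lower values in WT3 and WT4. Pde4a fell 2.38-fold (log2 fold change -1.25 ± 0.17, edgeR adjusted p = 0.000156).

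Pde4b (ENSMUSG00000028525, chromosome 4, 102087543 to 102607259, plus strand) was the exception. The gene is known from leukocytes, and in mouse macrophages it is induced by lipopolysaccharide. It was at 51.2, 36.6, 30.5 and 29.7 CPM in ANKO, against 25.2, 16.7, 14.3 and 14.97 CPM in WT. Library 1 was the highest of each group, and the lowest ANKO library was still above the highest WT library. Pde4b rose 2.10-fold (log2 fold change 1.07 ± 0.22, 95% interval 0.58 to 1.57, edgeR adjusted p = 0.0023). After adjustment for muscle markers the value was 0.73 ± 0.40 and no longer called (edgeR adjusted p = 0.219). The macrophage and lymphocyte markers given above rose beside it, and their part in the Pde4b result was not tested.

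The 5 phosphodiesterases of the set together fell to 36.6% of the WT level in ANKO. Their summed RPKM was 63.0 ± 4.71 in ANKO and 172 ± 20.2 in WT (SD, n = 4 each). Per length, the ANKO order was Pde3b (42.3 ± 3.24 RPKM), Pde4d (10.1 ± 1.53), Pde3a (3.73 ± 0.392), Pde4b (3.51 ± 0.939) and Pde4a (3.29 ± 0.411), and the libraries of the last 3 overlapped. The WT order was Pde3b (121 ± 15.9 RPKM), Pde4d (32.4 ± 4.30), Pde3a (8.999 ± 2.70), Pde4a (7.86 ± 1.87) and Pde4b (1.69 ± 0.477), where Pde3a and Pde4a overlapped. Over all 10 genes Prkar2a overlapped Pde4d in ANKO, and in WT Prkaca overlapped Pde3b and Prkar2a overlapped Pde3a.

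Pde4b made up 7.31%, 5.66%, 4.30% and 4.93% of the summed RPKM of the 5 enzymes in ANKO, against 1.498%, 1.03%, 0.683% and 0.802% in WT. Its share was larger in each ANKO library (exact two-sided permutation test, p = 0.0286, adjusted p = 0.0476). After thinning the counts the adjusted p of this exact permutation test was 0.0571. The other 4 shares were not called. Pde3b held 67.3% ± 2.29 in ANKO and 70.3% ± 1.40 in WT (exact permutation adjusted p = 0.107). Pde4d held 16.01% ± 1.74 in ANKO and 18.8% ± 1.13 in WT (exact permutation adjusted p = 0.0816).

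Among the WT libraries Pde3a was higher and Pde4a lower in WT3 and WT4, which held the least muscle RNA. The plot against the muscle marker level shows this. Between WT1 and WT2 the order went the other way. WT3 and WT4 were also the deepest WT libraries, with 37309875 and 49697156 counts. Their summed brown adipocyte markers were higher too, at 16174 and 14753 CPM, against 7926 and 9820 CPM in WT1 and WT2. Muscle RNA, depth and brown marker level cannot be told apart here. The mean log2 CPM of the 12 muscle markers was 8.63, 8.75, 9.17 and 9.10 in ANKO libraries 1 to 4, against 5.26, 6.72, 2.17 and 0.788 in WT libraries 1 to 4. No ANKO library reached down to the WT range. With that level as a covariate in the fit, here called adjustment for muscle markers, 6 of the 10 genes were called, all lower, namely Prkaca (log2 fold change -0.95), Prkacb (-0.63), Prkar2b (-2.18), Pde3b (-1.26), Pde4a (-1.79) and Pde4d (-1.33). Of all genes 4061 were then called, against 9726 without it. The standard errors of the 10 genes were larger in that fit, for Prkaca 0.23 against 0.13. A call can thus be lost without a smaller difference. Without WT3 and WT4, 8 of the 10 were called, and Prkar1a was the 1 call lost.

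**Figure D4:**
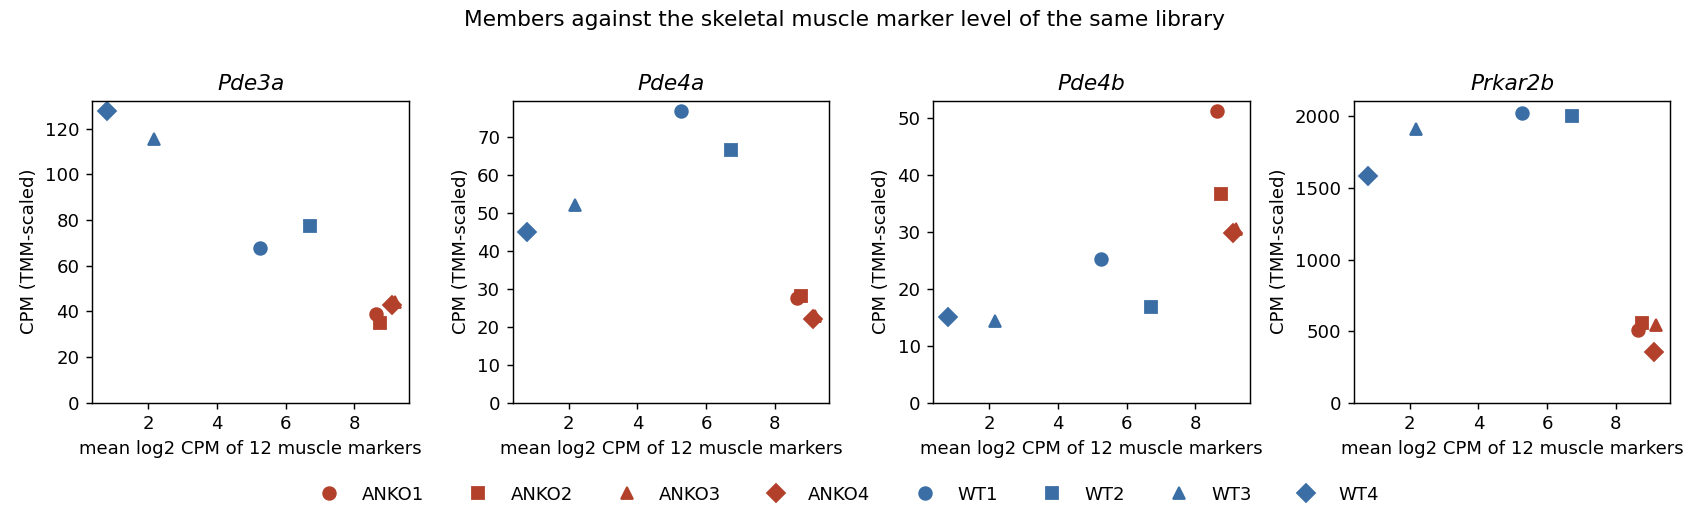
CPM of Pde3a, Pde4a, Pde4b and Prkar2b (vertical axes, from 0) against the mean log2 CPM of 12 skeletal muscle markers (horizontal axes) in the 4 ANKO (red) and 4 WT (blue) libraries. All ANKO libraries stand at the right, at 8.63 to 9.17. Among the WT libraries Pde3a is higher and Pde4a lower in WT3 and WT4, where the muscle level is lowest.

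Beyond the 10 genes, 9 lists of cAMP signalling genes were read from the same fit. Of their 72 tested genes 15 were higher and 26 lower, with a median log2 fold change of -0.27. That is 56.9% called, against 58.2% of all genes tested (30.6% higher, 27.6% lower), so the number of calls in these lists is near that of any genes, and the values below describe single genes. The plot of other cAMP signalling genes shows them by list.

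**Figure D5:**
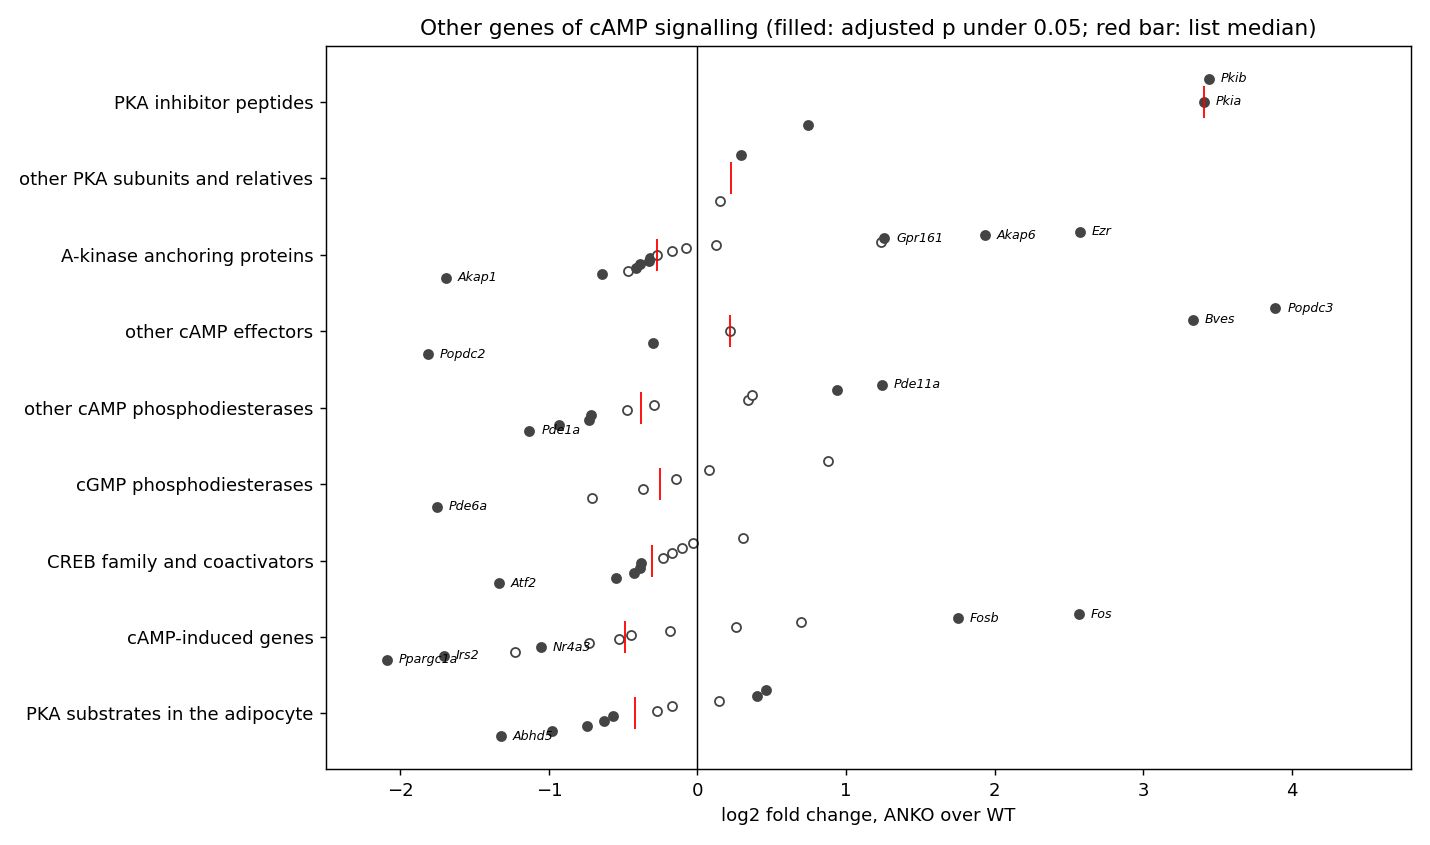
Log2 fold change of ANKO over WT (horizontal axis) for the tested genes of 9 lists (vertical axis), filled where the adjusted p was under 0.05, with the list median as a red bar and called genes beyond 1 in either direction named. The 3 PKA inhibitor peptides are all filled and on the right. Prkar1b and Prkx, the other subunits and relatives, lie just right of 0 at 0.15 and 0.29.

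The PKA inhibitor peptides all rose. They bind free catalytic subunits like a substrate, block them and carry them out of the nucleus. Pkia, the form abundant in skeletal muscle and heart, was at 93.4, 106, 109.7 and 104 CPM in ANKO, against 11.6, 20.9, 2.72 and 4.23 CPM in WT. WT3 and WT4, which held the least muscle RNA, were also the lowest for Pkia, though WT4 held less muscle RNA than WT3 and more Pkia. Its log2 fold change was 3.41 ± 0.62 (edgeR adjusted p = 0.00234), and 1.503 ± 0.37 after adjustment for muscle markers, still called. Muscle RNA and genotype cannot be told apart in the Pkia result. Pkib, with 3.18 ± 1.19 CPM in ANKO, against 0.276 ± 0.174 CPM in WT, had a log2 fold change of 3.44 ± 0.43. Pkig, the most widely expressed form, was at 18.3, 16.02, 21.6 and 18.4 CPM in ANKO, against 8.47, 8.55, 14.5 and 12.7 CPM in WT. It rose less, by a log2 fold change of 0.74 ± 0.19, and here WT3 and WT4 were the higher of the WT libraries. All 3 kept their calls after adjustment for muscle markers.

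Of the remaining subunits and relatives, Prkx, an X-linked kinase close to the PKA catalytic subunits, was called higher at a log2 fold change of 0.29. Prkar1b, which encodes the RIβ of brain, was low and was not called (3.55 ± 1.33 CPM in ANKO, 3.08 ± 0.651 CPM in WT).

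A-kinase anchoring proteins tether PKA through its regulatory subunits. Of 15 tested 6 fell and 3 rose (median log2 fold change -0.27). Akap1, which holds PKA at the outer mitochondrial membrane, was at 233, 282, 249.7 and 167 CPM in ANKO, against 853, 843, 601 and 715 CPM in WT. Every ANKO library was below every WT library. It fell 3.23-fold (log2 fold change -1.69 ± 0.19, edgeR adjusted p = 3.99e-05), and was also called after adjustment for muscle markers (-1.99). Arfgef2 (-0.64), Akap9 (-0.41) and Akap11 (-0.38) fell less, and the other falls were smaller. The higher members were Ezr, which encodes ezrin, a linker of membrane and actin, at 2.57, Akap6, an anchor of the nuclear envelope in muscle cells, at 1.93, and Gpr161, a receptor of the primary cilium, at 1.26. After adjustment for muscle markers neither Akap6 nor Gpr161 was called, while Ezr was. Akap6 shrank to 0.39, while Gpr161 stayed near its value, at 1.22, with a larger standard error (0.45, against 0.24). The counts of Akap3, Akap4 and Sphkap were too low for the test.

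Among other proteins that bind cAMP, the Popeye genes Popdc3 and Bves, known from striated muscle, were higher at log2 fold changes of 3.89 and 3.34. Popdc2 of the same family fell, with 7.003 ± 0.213 CPM in ANKO and 24.7 ± 5.56 CPM in WT (-1.82 ± 0.17). After adjustment for muscle markers Popdc3 and Bves were not called (1.25 and 0.38), and Popdc2 was (-2.21). Rapgef3, the exchange factor EPAC1, was slightly lower at -0.30, and Rapgef4 (EPAC2) was not called.

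Of 10 other cAMP phosphodiesterases tested 4 fell and 2 rose (median log2 fold change -0.38). Their summed level was 194.8 to 221.7 CPM in ANKO and 249.8 to 316.7 CPM in WT. Pde1a, regulated by calcium and calmodulin, averaged 22.7 ± 0.892 CPM in ANKO, against 49.9 ± 2.63 CPM in WT (-1.13 ± 0.08). Pde7a, known from T cells and skeletal muscle, moved the other way, with 47.8, 45.8, 51.1 and 54.6 CPM in ANKO and 25.4, 26.3, 25.2 and 27.0 CPM in WT. The 4 WT libraries were nearly equal for Pde7a. Its log2 fold change was 0.94 ± 0.09, or 0.95 after adjustment for muscle markers. Every ANKO library held more muscle RNA than every WT library, so muscle RNA and genotype cannot be told apart in the Pde7a result. Pde4c (-0.93), Pde7b (-0.73) and Pde8a (-0.72) were the other falls, and Pde11a (1.24) the other rise. None of these 4 was called after adjustment for muscle markers. Of 6 cGMP phosphodiesterases tested only Pde6a was called, with a mean of 0.765 ± 0.209 CPM in ANKO, against 2.50 ± 0.653 CPM in WT.

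The lists of PKA targets held 5 of 10, 5 of 12 and 7 of 10 called genes, beside 58.2% of all genes tested. In the CREB family with its coactivators 5 of 10 genes fell and 0 rose (median -0.31), namely Atf2 (-1.34), Crem (-0.55), Ep300 (-0.43), Crtc2 (-0.39) and Crebbp (-0.38). Creb1 itself was not called (log2 fold change -0.17). Of 12 genes that cAMP is known to induce 3 fell (Ppargc1a at -2.09, Irs2 at -1.71 and Nr4a3 at -1.05) and 2 rose (Fos at 2.57 and Fosb at 1.76). Of 10 tested PKA substrates and related lipolysis genes 5 fell, among them Abhd5 (-1.32), the perilipin gene Plin1 (-0.98), the kinase gene Sik2 (-0.74) and the lipase gene Lipe (-0.63), with Sik3 at -0.57. Phkb and Nfatc1 rose, by 0.46 and 0.40. After adjustment for muscle markers 15 of the 72 genes were called, against 41 without it. Outside the inhibitor peptides these were Akap1, Akap9, Ezr, Popdc2, Pde1a, Pde7a, Pde6a, Atf2 (-0.88), Irs2 (-1.90) and Sik2 (-0.77). Some lost calls kept their size with a larger standard error, such as Lipe (-0.68 ± 0.31, against ± 0.17), and others shrank, such as Crem (-0.18). Akap12 (0.84) and Pde6g (-1.63) were called after the adjustment and also without WT3 and WT4 (0.44 and -1.20), but not in the fit of all libraries without it (0.13 and -0.71). Without WT3 and WT4, 8 calls were lost, namely Crebbp (-0.12), Crtc2 (-0.34), Fosb (1.43), Nr4a3 (-0.38), Pde11a (0.85), Pde4c (-0.51), Rapgef3 (-0.25) and Sik3 (-0.20). The 12 adipocyte markers had a median of -0.89 and the 10 brown adipocyte markers one of -1.80 on the same scale. These lists share genes with those above, since Plin1 and Lipe are also adipocyte markers and Ppargc1a is also a brown adipocyte marker.

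The genes whose profile over the 8 libraries lay closest to that of Prkar2b were mt-Nd5, Dpyd and mt-Nd6. Likeness was measured as the root mean square difference of log2(CPM + 1), each gene relative to its own WT mean, and was 0.102, 0.116 and 0.118. The mitochondrial genes encode subunits of complex I, and Dpyd the first enzyme of pyrimidine breakdown. For Pde4b they were Garnl3 (0.104), Bbc3 (0.162) and Kynu (0.162), the last of them a gene that averaged 1.21 CPM in ANKO, against 0.0849 CPM in WT, where the added 1 compresses the difference.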

How the data were processed

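Per the labels' protocols, brown fat was flash-frozen and rRNA was removed from its RNA with Ribo-Zero Gold. The tools STAR 2.0.4b and featureCounts 1.45 (Subread) and the build GRCm38 are named in the submitters' processing notes. The sources used here do not give the annotation release, the strand setting or the treatment of multi-mapped reads. The authors deposited read counts per Ensembl gene, with CPM and RPKM values computed from them, per the file headers. Counts entered all tests. The CPM and RPKM in the text were computed anew, from TMM-scaled library sizes and the deposited gene lengths.

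Symbols came from GENCODE M21, which matched 40340 of 41388 rows. The 355 rRNA rows were left out. These rows held 0.801% to 1.13% of the counts of ANKO libraries and 2.83% to 3.53% of those of WT libraries. The cause of that difference was not tested. edgeR 4.0.16 (R 4.3.3) was fitted to all 16705 genes that passed filterByExpr, with TMM scaling, robust quasi-likelihood dispersion, no covariate and Benjamini-Hochberg adjustment. Standard errors were derived from the F statistic. Shares were tested with an exact permutation test over libraries. By rule the text names all 10 members, Nampt, every called gene of a related list up to the 6 with the smallest p, all genes of short lists, and the 3 protein-coding genes most like the members with the largest rise and fall. Ucp1, Akap6, Akap12, Pde6g, Sik3 and Creb1 fall outside it and were chosen after their values were seen. The members and lists were chosen with earlier results of these data known. The test was tried on simulated data of 16705 genes, with the same dispersion for every gene. It called 13.4% of 67 genes set to differ 1.5-fold, 59.7% of 67 at 2-fold and 98.5% of 66 at 4-fold. It also made 4 false calls. In the real data 58.2% of all genes were called, so these rates do not measure the power of the test there. Alternatives were other scaling, filters, thinning, DESeq2 1.42.0, limma-voom (limma 3.58.1), a replicate block, left-out libraries, protein-coding nuclear genes, a stricter threshold and the muscle marker level as a covariate. Figures were drawn with matplotlib 3.10.9.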

Additional observations from a re-analysis of the deposited data

Results flagged for a closer look

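In 40 groups of 4 libraries that were checked (10 genes and 10 shares or ratios in each genotype), 2 held a library far from the other 3, and chance marks about 1 in 20 such groups. Pde4d in ANKO4, the shallowest library, was at 93.8 CPM, below the other ANKO libraries at 129.6 to 132 CPM, and it widens the gap to WT. The ratio of catalytic to regulatory RPKM in WT4 was 0.312, above 0.270 to 0.277 in the other WT libraries and still below every ANKO library.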

How the results depend on the processing

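Each member's log2 fold change was recomputed under 20 alternatives. Directions held in all of them for all 10 genes, and the calls of Prkaca, Prkacb, Prkar2b, Pde3b, Pde4a and Pde4d held in all. Prkar2b ranged from -2.18 to -1.78, Pde4d from -1.76 to -1.33 and Pde3b from -1.58 to -1.26. Calls of Prkar1a, Pde3a and Pde4b were lost, and Prkar2a was called, only under the settings named beside them, and Prkar1a also missed an adjusted p of 0.01. With the replicate number as a replicate block 9239 genes and 9 members were called. The labels do not say whether the numbers pair the samples. Correlations of the deviations of same-numbered libraries from their group means were -0.0530 to 0.114. Of 8 libraries 3 correlated best with their own number, and so few libraries cannot decide whether the samples are paired. Members called higher numbered 2 with upper-quartile scaling and 2 without scaling factors. Without factors 2940 genes were called lower and the median of all genes was 0.17. With the muscle covariate 4061 genes (2337 higher, 1724 lower), 0 members higher and 15 related genes were called. The cause was not tested, since the covariate follows genotype. Of the 10 shares and ratios 6 were called, 7 without division by length. After thinning 0 were called, since Prkaca's share then overlapped between groups and the adjusted p of the others was 0.0571. Without any single library the count was 0 to 0 and without WT3 and WT4 it was 0, because in these designs the exact permutation test cannot go below p = 0.0571 and 0.133. The share of Pde4a, which was not called, changed sign without WT3 and WT4 (difference -0.743 points, against 0.559). ANKO4 was the shallowest library, with 5738067 counts. No test here separates adipocyte number from level per adipocyte.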
